A study of Mus musculus with 6 samples.

Results

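A set of 10 genes of simple epithelium was read in RNA-seq libraries of LSECs, the liver's own sinusoidal endothelial cells, taken from mice with HCT116 colorectal cancer liver metastases (CRCLM). They are the keratins Krt7, Krt8, Krt18, Krt19 and Krt20, the adhesion genes Epcam, Cdh1, Cldn3 and Cldn4, and the transcription factor Sox9. The genes were chosen by symbol, and each of the 10 matched 1 of the 60832 genes in the count table. All 10 had counts in at least 1 library, and 9 of them passed the filter on low counts, Krt20 being the exception. Of the 6 libraries, 3 came from LSECs of bevacizumab-sensitive xenografts (sensitive replicates 1 to 3) and 3 from those of bevacizumab-resistant xenografts (resistant replicates 1 to 3). HCT116, a single human colorectal cancer line, was injected into the liver of male BALB/c nude mice, a few weeks old when obtained and deficient in T cells, and resistant xenografts arose under repeated bevacizumab, an antibody against human VEGF-A, whereas the vehicle group received IgG. Both groups were made by the same isolation with beads against CD146 and, by the sample labels, had been in culture for 24 h. The labels do not say how many mice went into a library or that equal replicate numbers mark a shared mouse or day, so the p-values measure the spread between these libraries, part of which may be technical.

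Keratins are the intermediate filaments of epithelial cells, and each filament is built from 1 type II chain (Krt7, Krt8) paired with 1 type I chain (Krt18, Krt19, Krt20). In the liver, Krt8 and Krt18 form the filaments of hepatocytes, and bile duct cells carry Krt7 and Krt19 besides. Cdh1 (E-cadherin) holds neighbouring epithelial cells together, Epcam is a surface adhesion molecule, Cldn3 and Cldn4 are tight junction proteins, and Sox9 is a regulator of bile duct and progenitor cells. Endothelial cells are built on vimentin filaments and VE-cadherin (Cdh5) instead. EpCAM was also the bead target with which the study isolated tumor cells, and CD146 the one with which it isolated LSECs.

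The libraries held between 17599326 and 20726684 counts on genes, so 3 counts corresponded to between 0.136 and 0.195 CPM (counts scaled by TMM to a common library size), a floor that covers counting error only. Markers were checked against the label. Summed over 16 endothelial genes the level was between 166 and 796 CPM, and over 16 macrophage genes between 22884 and 41923 CPM, so macrophage genes outweighed endothelial genes in every library labelled as LSECs. Mcam, which encodes CD146, was at 0.308 to 3.87 CPM. Sensitive replicate 2 had the lowest level of the 6 libraries for 40.6% of the 15474 genes tested, against 9.16% to 16.5% for the other libraries, and the highest level for 33.3%, against 10.6% to 17.9%, so it stood apart from the rest. The count table lists mouse genes alone, and reads of human HCT116 RNA that aligned to a mouse gene cannot be told apart from mouse reads. In bulk libraries, fewer cells of a type and less RNA per cell cannot be told apart either.

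Compared per length, on the FPKM scale, Krt8 and Krt18 were the most abundant of the 10 genes. The median level over the 6 libraries was 24.1 FPKM for Krt8 and 22.3 FPKM for Krt18, followed by Cldn4 at 9.86, Krt19 at 7.04, Cdh1 at 2.66, Cldn3 at 2.07, Epcam at 1.89, Krt7 at 1.08, Sox9 at 0.319 and Krt20 at 0.113 FPKM. The order held in all 6 libraries only at the steps from Krt18 to Cldn4 and from Krt19 to Cdh1. Krt8 was above Krt18 in 5 libraries, Cldn4 above Krt19 in 4, Cdh1 above Cldn3 in 3 and Cldn3 above Epcam in 3. The order of those neighbours thus changed between libraries, and their differences were not tested. Among the genes tested, the FPKM of Krt8 ranked from the 43.1st percentile in sensitive replicate 3 to the 94.9th in resistant replicate 3.

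Krt8 lies on chromosome 15 of GRCm38 from 101996698 to 102004482, on the minus strand, and Krt18, the gene of its partner chain, from 102028180 to 102032027 on the plus strand, 23.7 kb away with no protein-coding gene between them. Krt8 was at 51.5, 113 and 5.87 CPM in sensitive replicates 1, 2 and 3 and at 28.4, 40.1 and 114 CPM in resistant replicates 1, 2 and 3. Krt18 was at 33.6, 107 and 3.03 CPM in the sensitive libraries and at 18.2, 28.7 and 67.7 CPM in the resistant libraries. Both genes were high in sensitive replicate 2 and resistant replicate 3 and low in sensitive replicate 3, and the groups overlapped. The partners stayed close to each other in level while Krt8 varied 19.4-fold and Krt18 35.4-fold over the libraries. The FPKM ratio of Krt8 to Krt18 was 1.12, 0.773 and 1.42 in the sensitive and 1.15, 1.03 and 1.24 in the resistant libraries. A pseudogene copy, Krt8-ps, had between 0 and 9 counts, so reads that fit Krt8 and its copies may have been split or dropped by the counting, and the level of Krt8 is uncertain to that extent.

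Krt19 (chromosome 11, 100140810 to 100148665, minus strand), the smallest type I keratin and a bile duct keratin, was at 11.3, 28.8 and 0.832 CPM in sensitive replicates 1 to 3 and at 13.2, 4.83 and 36.9 CPM in resistant replicates 1 to 3. Among the 9 genes of this set that were tested, it had the widest range over the 5 libraries other than sensitive replicate 3, at 7.63-fold. Krt7 (chromosome 15, 101411043 to 101430313, plus strand), the type II keratin of ducts, was at 7.56, 25.05 and 0.294 CPM in the sensitive and 3.85, 7.35 and 14.0 CPM in the resistant libraries. Both were again lowest in sensitive replicate 3, where Krt19 had 17 counts and Krt7 had 6. Krt20 (chromosome 11, 99428403 to 99438150, minus strand), a keratin of intestinal epithelium, had 8, 0 and 0 counts in the sensitive and 8, 1 and 29 counts in the resistant libraries. It was below the floor of 3 counts in 3 libraries, and resistant replicate 3 held most of its counts.

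**Figure D1:**
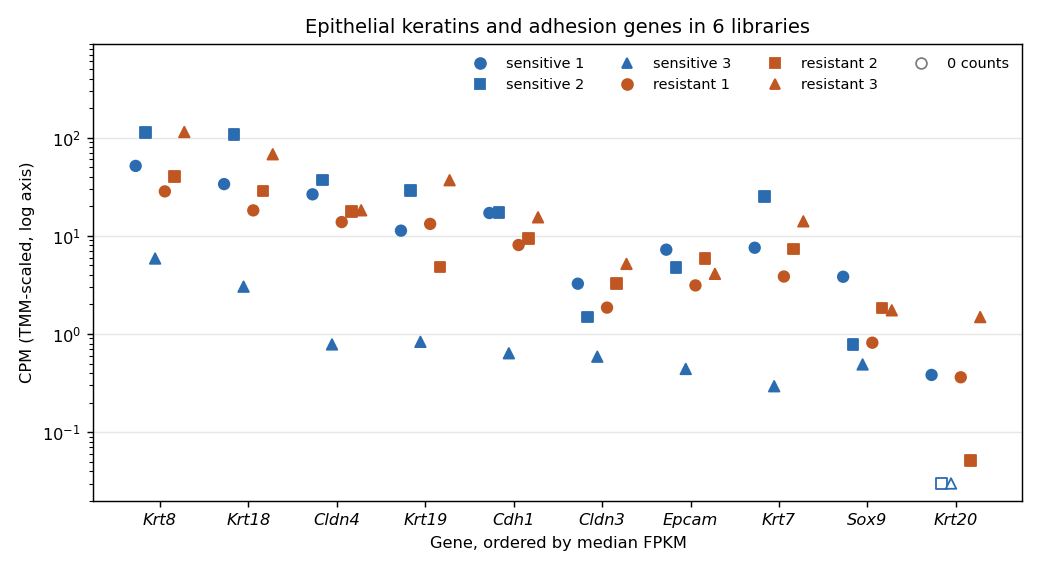
Level of each of the 10 genes in the 6 libraries, in TMM-scaled CPM on a log axis, with 1 symbol per library and open symbols at the base for 0 counts. Sensitive replicate 3 lies lowest for 9 of the 10 genes, and the libraries of both groups overlap for every gene.

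The adhesion genes spanned a smaller range outside sensitive replicate 3 than the keratins did. Cdh1, on chromosome 8 from 106603351 to 106670246 on the plus strand, was at 17.1, 17.3 and 0.636 CPM in sensitive replicates 1 to 3 and at 8.06, 9.35 and 15.4 CPM in resistant replicates 1 to 3. Epcam, on chromosome 17 from 87635979 to 87651129 on the plus strand, was at 7.23, 4.74 and 0.440 CPM in the sensitive and 3.13, 5.86 and 4.10 CPM in the resistant libraries. Without sensitive replicate 3, the 5 remaining libraries differed by at most 2.15-fold for Cdh1 and 2.31-fold for Epcam. For Cdh1 both remaining sensitive libraries were above all 3 resistant ones, by little in the case of resistant replicate 3, and for Epcam the groups still overlapped.

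Cldn4 and Cldn3 are neighbours on chromosome 5, Cldn4 from 134945119 to 134946934 on the minus strand and Cldn3 from 134986214 to 134987472 on the plus strand, 39.3 kb apart with no protein-coding gene between them. Cldn4 was at 26.5, 36.9 and 0.783 CPM in the sensitive libraries and at 13.8, 17.6 and 18.2 CPM in the resistant libraries. Cldn3 was at 3.25, 1.49 and 0.587 CPM in the sensitive and 1.86, 3.29 and 5.18 CPM in the resistant libraries. Unlike the keratin pair, the claudin pair did not keep a steady ratio. Cldn4 exceeded Cldn3 on the FPKM scale by 5.64-fold and 17.2-fold in sensitive replicates 1 and 2 and by 5.16-, 3.72- and 2.44-fold in the resistant libraries, and was at 0.924 of Cldn3 in sensitive replicate 3.

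Sox9, on chromosome 11 from 112782224 to 112787760 on the plus strand, was at 3.83, 0.779 and 0.489 CPM in the sensitive and 0.815, 1.85 and 1.74 CPM in the resistant libraries. Its highest level was in sensitive replicate 1, the library that was also highest for Epcam, and its level in sensitive replicate 2 was below every resistant library although the keratins were high there. With 10 to 80 counts per library it was the least abundant of the 9 genes tested.

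Summed over the 10 genes, the level was 162, 335 and 13.0 CPM in sensitive replicates 1 to 3 and 91.6, 119 and 279 CPM in resistant replicates 1 to 3, a description given with no test. The sum of the 5 keratins was 104, 274 and 10.0 CPM in the sensitive and 64.0, 81.1 and 234 CPM in the resistant libraries. The sum of Epcam, Cdh1, Cldn3 and Cldn4 was 54.0, 60.5 and 2.45 CPM in the sensitive and 26.9, 36.1 and 42.9 CPM in the resistant libraries. The keratin sum was therefore 1.93, 4.53 and 4.10 times the adhesion sum in the sensitive and 2.38, 2.24 and 5.46 times in the resistant libraries. Libraries of the same group differed in this ratio by more than the group means did. Sensitive replicate 2 and resistant replicate 3, with the largest keratin sums, also had the largest ratios.

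**Figure D2:**
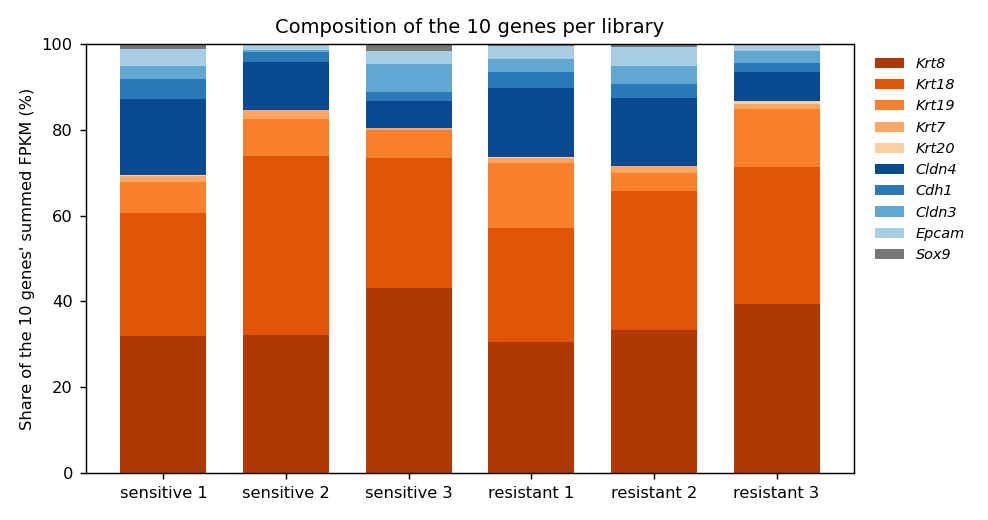
Share of each gene in the FPKM summed over the 10 genes, in percent, for the 6 libraries. Keratins made up from 69.5% in sensitive replicate 1 to 86.6% in resistant replicate 3.

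Sensitive replicate 3 held the lowest level of all 10 genes but Krt20, where it tied with sensitive replicate 2 at 0, whereas it was lowest for 16.5% of all genes tested. This pattern was seen in the values and then counted. The next lowest library exceeded it by 17.6-fold for Cldn4, 13.1-fold for Krt7, 12.7-fold for Cdh1, 7.10-fold for Epcam, 5.99-fold for Krt18, 5.80-fold for Krt19, 4.83-fold for Krt8, 2.54-fold for Cldn3 and 1.59-fold for Sox9. Of all genes tested, 69 (0.446%) were at least 3-fold lower in this library than in every other library, and 7 of them were among these 10 genes. The library was not shallow, with 20556185 counts.

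Some lists of markers of other cell types were low in this library as well. The cholangiocyte list of 10 genes summed to 9.91, 11.4 and 2.84 CPM in the sensitive and 9.29, 13.2 and 15.7 CPM in the resistant libraries. Of its 10 genes, 5 were lowest in sensitive replicate 3. The other 5 tied at 0 in several libraries, sensitive replicate 3 among them. The hepatocyte list of 14 genes summed to 223, 369 and 323 CPM in the sensitive and 320, 496 and 361 CPM in the resistant libraries. The lowest sum of that full list was in sensitive replicate 1. Its largest part was Trf, which macrophages also express and which was at 291 CPM in sensitive replicate 3. Without Trf, the sums were 82.8, 107 and 32.0 CPM in the sensitive and 68.0, 196 and 100 CPM in the resistant libraries. The mesothelium list of 7 genes summed to 56.3, 60.9 and 18.1 CPM in the sensitive and 9.06, 43.0 and 82.1 CPM in the resistant libraries, so its lowest sum was in resistant replicate 1. The exocrine pancreas list summed to 51.8, 141 and 17.1 CPM in the sensitive and 16.4, 9.19 and 12.1 CPM in the resistant libraries, so it was not lowest in sensitive replicate 3. Without Cela1, set aside after its values were seen because it was at 8.29 to 26.7 CPM in every library, the sums were 40.4, 114 and 0.196 CPM in the sensitive and 8.06, 0 and 3.64 CPM in the resistant libraries. Of 9 intestinal epithelium genes, 7 had counts in at least 1 library, and the list summed to between 3.72 CPM, in sensitive replicate 3, and 14.1 CPM, in sensitive replicate 2. Lgals4, a lectin gene of gut epithelium, was at 2.94 to 5.97 CPM in all 6 libraries, and the transcription factor genes Cdx1 and Cdx2, named after their values were seen as those without counts, were at 0 in all 6. The endothelial list summed to 796 CPM in sensitive replicate 3, its highest sum. The part of these cell types in the levels of the 10 genes was not tested.

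**Figure D3:**
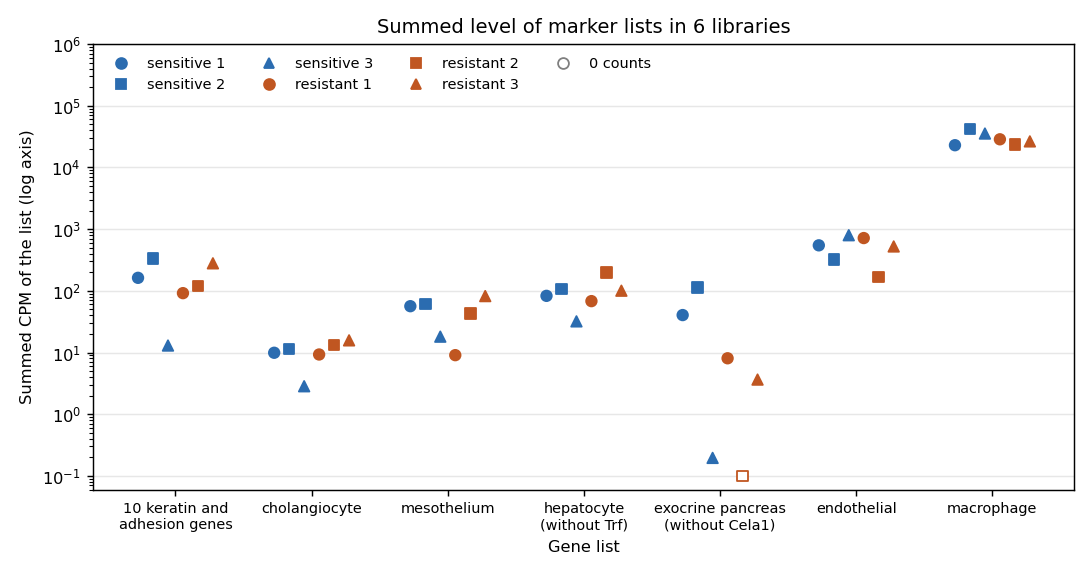
Summed CPM per library, on a log axis with an open symbol for 0 counts, of the 10 genes and of lists of marker genes for other cell types. The sum of the 10 genes and the sums of the cholangiocyte list and of the hepatocyte list without Trf are lowest in sensitive replicate 3, and the mesothelium sum is lowest in resistant replicate 1.

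The sequences around the starts of the neighbouring keratin pair, the neighbouring claudin pair and Epcam are shown because all 5 windows hold the same short motif. The window of Krt7 holds it too and is not printed. RefSeq promoter windows of 300 bases (250 before to 50 after the start, GRCm38.p6) were matched by symbol for 7 of the 10 genes, those of Epcam, Krt7, Krt8, Krt18, Krt20, Cldn3 and Cldn4. The RefSeq start can differ from the start of the gene by the coordinates given above. In genome position the difference was 1360 bases for Krt7, -140 for Krt8 (minus strand) and 36 for Krt18. Each of these RefSeq starts lay inside the gene coordinates. The motif searched was CACCTG on either strand, the E-box to which repressors of the Snail and Zeb families are known to bind, and capitals mark it or its reverse complement CAGGTG.
Epcam promoter window, chr17:87635729-87636028, plus strand: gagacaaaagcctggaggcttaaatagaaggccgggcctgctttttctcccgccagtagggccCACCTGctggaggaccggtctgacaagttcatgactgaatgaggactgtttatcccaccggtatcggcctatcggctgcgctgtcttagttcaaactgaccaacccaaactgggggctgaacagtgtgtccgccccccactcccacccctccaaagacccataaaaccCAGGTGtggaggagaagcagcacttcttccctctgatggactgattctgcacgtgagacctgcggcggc
Krt8 promoter window, chr15:102004293-102004592, minus strand: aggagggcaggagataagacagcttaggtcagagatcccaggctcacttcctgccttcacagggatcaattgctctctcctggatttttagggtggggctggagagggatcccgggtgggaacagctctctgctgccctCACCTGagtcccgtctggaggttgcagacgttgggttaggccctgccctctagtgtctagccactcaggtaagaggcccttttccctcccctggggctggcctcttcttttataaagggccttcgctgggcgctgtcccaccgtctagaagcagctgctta
Krt18 promoter window, chr15:102027966-102028265, plus strand: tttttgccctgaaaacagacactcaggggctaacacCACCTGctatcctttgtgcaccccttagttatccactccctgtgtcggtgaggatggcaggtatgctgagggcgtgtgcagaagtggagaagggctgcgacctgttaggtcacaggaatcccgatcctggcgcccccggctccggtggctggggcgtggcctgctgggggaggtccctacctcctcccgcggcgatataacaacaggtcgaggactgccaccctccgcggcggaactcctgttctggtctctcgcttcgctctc
Cldn3 promoter window, chr5:134985964-134986263, plus strand: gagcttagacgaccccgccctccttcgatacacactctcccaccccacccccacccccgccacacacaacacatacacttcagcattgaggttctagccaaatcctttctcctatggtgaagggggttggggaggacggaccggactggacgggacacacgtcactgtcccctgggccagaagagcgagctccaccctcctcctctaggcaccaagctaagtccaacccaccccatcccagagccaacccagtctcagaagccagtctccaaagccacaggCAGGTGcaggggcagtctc
Cldn4 promoter window, chr5:134946885-134947184, minus strand: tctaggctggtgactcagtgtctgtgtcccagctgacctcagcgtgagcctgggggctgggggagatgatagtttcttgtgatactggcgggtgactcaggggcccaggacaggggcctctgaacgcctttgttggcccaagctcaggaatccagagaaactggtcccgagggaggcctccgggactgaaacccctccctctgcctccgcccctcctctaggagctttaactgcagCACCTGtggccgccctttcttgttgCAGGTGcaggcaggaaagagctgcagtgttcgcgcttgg
The motif was in 6 of the 7 windows, all but that of Krt20, and in 20.2% of all 32851 windows of this length. It occurred once in Krt7, Krt8, Krt18 and Cldn3 and 2 times in Epcam and Cldn4, and 2.88% of all windows held it at least 2 times. Among windows with at least the GC content of the least GC-rich of these 6, the share with the motif was 21.5%. A match describes letters in a window and does not show that a factor binds there.

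The resistant libraries were then compared with the sensitive ones, and no gene of the 9 tested passed the test. In edgeR's quasi-likelihood test, 0 of the 9 had an adjusted p under 0.05, where 0% of the 15474 genes tested passed (percent called 0), and 0 of the 9 had an unadjusted p under 0.05, where 3.08% of genes did. DESeq2's Wald test called 0 of the 9 at either threshold, where it called 0.155% of genes after adjustment and 4.74% before. Groups without overlap were found for 0 of the 9, against 9.02% of all genes tested, 4.64% higher and 4.38% lower in the resistant group.

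Krt8 averaged 56.8 ± 53.7 CPM (SD, n = 3) in the sensitive and 60.9 ± 46.5 CPM (SD, n = 3) in the resistant group. On the log2 scale the fold change, resistant against sensitive, was 0.10 (standard error 0.946, 95% interval -2.13 to 2.33, adjusted p = 0.986 by edgeR's quasi-likelihood test). Krt18 averaged 48.0 ± 53.6 and 38.2 ± 26.1 CPM, with a log2 fold change of -0.33 (95% interval -2.80 to 2.15). Krt19 averaged 13.6 ± 14.1 and 18.3 ± 16.6 CPM, a log2 fold change of 0.43 (95% interval -2.21 to 3.07). Krt7 averaged 10.97 ± 12.7 and 8.41 ± 5.18 CPM, a log2 fold change of -0.38 (95% interval -3.13 to 2.37). For the 4 genes Krt7, Krt18, Krt19 and Sox9 the SD of the sensitive group was larger than its mean. The keratins thus had values on both sides of 0, with intervals that reach past 4-fold in either direction.

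Among the adhesion genes, Cldn4 averaged 21.4 ± 18.6 CPM (SD, n = 3) in the sensitive and 16.5 ± 2.38 CPM (SD, n = 3) in the resistant group, with a log2 fold change of -0.37 (95% interval -2.72 to 1.98). Cdh1 averaged 11.7 ± 9.57 and 10.9 ± 3.93 CPM, a log2 fold change of -0.09 (95% interval -2.31 to 2.13). Epcam averaged 4.13 ± 3.43 and 4.36 ± 1.38 CPM, a log2 fold change of 0.08 (95% interval -1.90 to 2.06). Cldn3 averaged 1.78 ± 1.36 and 3.44 ± 1.67 CPM, a log2 fold change of 0.95 (standard error 0.701, 95% interval -0.71 to 2.60, unadjusted p = 0.219, adjusted p = 0.940 by edgeR's quasi-likelihood test). This was the largest difference of the 9 and had the smallest p. Sox9 averaged 1.70 ± 1.85 and 1.47 ± 0.569 CPM, a log2 fold change of -0.22 (95% interval -2.21 to 1.78). The single-gene exact permutation test, two-sided, gave p between 0.2 for Cldn3 and 1 for Epcam and Sox9, where the smallest p for 3 against 3 libraries is 0.1.

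The median log2 fold change of the 9 was -0.09, with 4 positive and 5 negative, beside 0.01 over all genes tested, of which 7855 were positive and 7619 negative. For 5 of the 9 the interval held both a 4-fold lower and a 4-fold higher level, so differences of that size in either direction lay within the interval. The spread between libraries of a group, given as the biological coefficient of variation, was between 61.1% for Cldn3 and 94.5% for Krt7, beside a median of 36.2% over all genes tested.

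**Figure D4:**
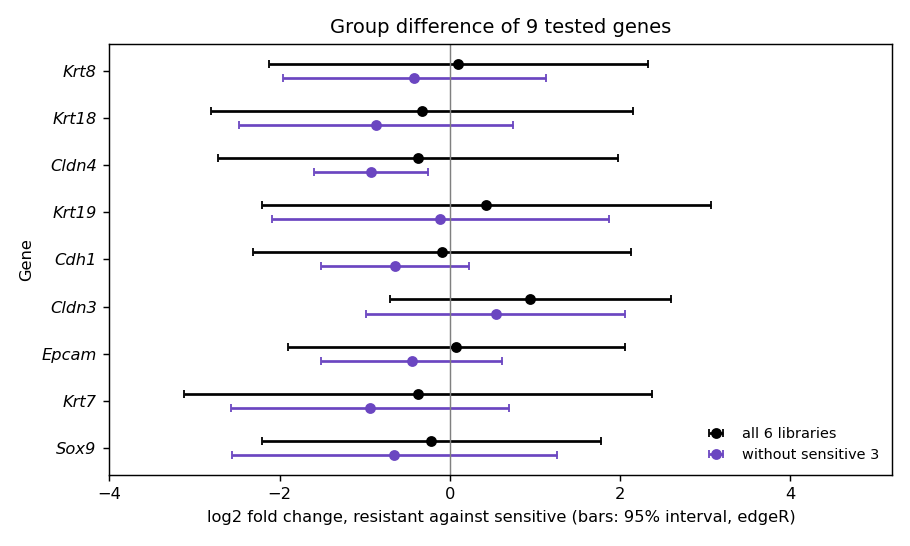
Log2 fold change of resistant against sensitive LSECs for the 9 genes tested, with the 95% interval from edgeR's quasi-likelihood test, with all 6 libraries and without sensitive replicate 3. All 9 intervals with all libraries contain 0, and without sensitive replicate 3 the estimates of 8 genes are below 0.

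Leaving out sensitive replicate 3, the lowest library for all 9 genes, had to raise the sensitive mean and so to lower each estimate, and the values are given as a description of its weight. Cldn4 was then at -0.93 on the log2 scale (standard error 0.280, 95% interval -1.60 to -0.26, unadjusted p = 0.0142, adjusted p = 0.659 by edgeR's quasi-likelihood test). It was 1 of 9 genes with an unadjusted p under 0.05, where 6.53% of 16169 genes had one, 5.29% lower and 1.24% higher in the resistant group. Cdh1 was at -0.64 (unadjusted p = 0.124), and the libraries no longer overlapped for 2 of the 9, Cdh1 and Cldn4, both lower in the resistant group, where 26.8% of the 16169 genes did not overlap and 13.1% were lower in this way. Krt7 was at -0.94, Krt18 at -0.87, Sox9 at -0.65, Epcam at -0.45, Krt8 at -0.42 and Krt19 at -0.11, and Cldn3 alone stayed positive at 0.54. The median of the 9 was -0.64. The 2 remaining sensitive libraries also held more of the pancreas list than any resistant library, and the part of that tissue was not tested.

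The direction of most genes differed between fits. With limma-voom there were 9 of 9 positive values with a median of 0.91, and with the replicate number as a block 9 of 9 with a median of 0.35. Without sensitive replicate 2, which is high in keratins, 8 of 9 were positive, and without resistant replicate 3, 7 of 9 were negative. Cldn3 was positive in each of these fits. No fit gave an adjusted p under 0.05 for any of the genes.

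**Figure D5:**
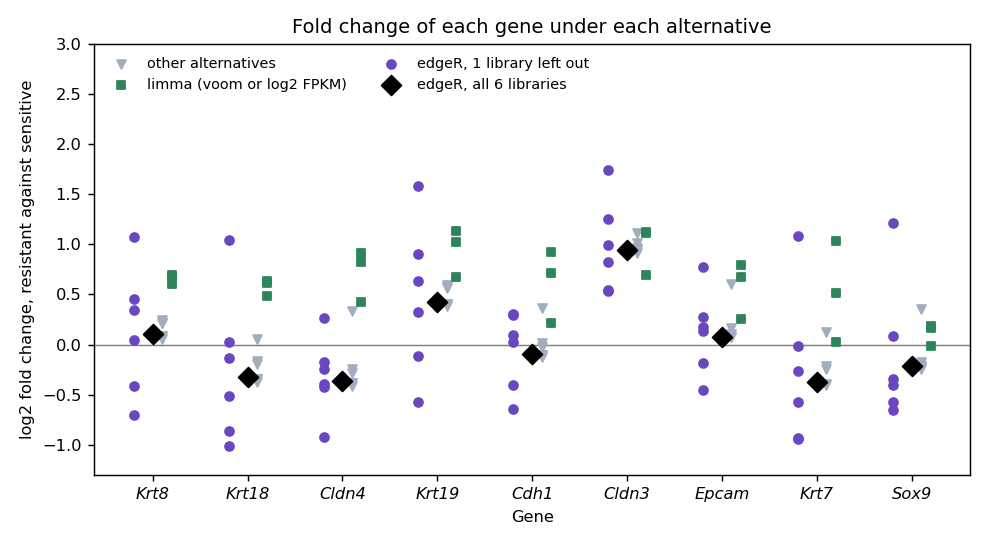
Log2 fold change of resistant against sensitive LSECs for each gene tested under the main edgeR fit and under each alternative fit. Values of most genes lie on both sides of 0 depending on the fit, while those of Cldn3 lie between 0.54 and 1.74.

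Other genes of the same structures were read from lists of epithelial genes, each with its own count at an unadjusted p under 0.05, and 0 of them had an adjusted p under 0.05. Of 12 other keratins, 3 passed the filter and 0 of those were called. Krt23 was at 3.64, 14.0 and 1.08 CPM in the sensitive and 2.17, 1.80 and 1.64 CPM in the resistant libraries, with a log2 fold change of -1.72 (unadjusted p = 0.0828 by edgeR's quasi-likelihood test). Of 11 desmosome genes, 9 passed, 0 were called, and their median log2 fold change was 0.29. Of 11 adherens junction genes, all passed and 0 were called, with a median of -0.0003. The latter list includes the catenins Ctnnb1 and Ctnna1, which link cadherins to actin, and Cdh5, which was at 183, 48.0 and 220 CPM in the sensitive and 203, 18.3 and 230 CPM in the resistant libraries. Cdh5 thus exceeded Cdh1 in every library.

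Of 17 further tight junction genes, 13 passed the filter, 1 was called higher and 0 lower in the resistant group, beside 0.536% of all genes higher and 2.54% lower, and their median log2 fold change was -0.28. The gene called higher was Cldn2, the claudin of leaky epithelia, named after its values were seen, with 10, 0 and 1 counts in the sensitive and 57, 10 and 66 counts in the resistant libraries (unadjusted p = 0.0250, adjusted p = 0.940 by edgeR's quasi-likelihood test). On the CPM scale its groups did not overlap, by the small gap between 0.479 in sensitive replicate 1 and 0.514 in resistant replicate 2, and sensitive replicates 2 and 3 were at or below the floor. Cldn1, a claudin of hepatocytes and bile ducts, was at 30.7, 22.5 and 3.92 CPM in the sensitive and 13.4, 2.00 and 0.974 CPM in the resistant libraries, with a log2 fold change of -1.80 (unadjusted p = 0.138). Cldn1 was low in both resistant replicates 2 and 3, where Cldn4 was not.

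Of 17 epithelial regulators and surface proteases, 13 passed, 0 were called higher and 1 lower, with a median log2 fold change of -0.33. The gene called was Esrp1, a splicing regulator of epithelial cells, also named after its values were seen. It was at 2.01, 2.21 and 3.38 CPM in the sensitive and 0.589, 0.616 and 0.871 CPM in the resistant libraries, without overlap, a log2 fold change of -1.86 (standard error 0.498, unadjusted p = 0.00681, adjusted p = 0.940 by edgeR's quasi-likelihood test). Its highest level was in sensitive replicate 3, in which 6 of the 17 genes of this list were lowest and Esrp1 alone was highest. Of the desmosome genes 5 of 11 and of the further tight junction genes 5 of 17 were lowest in that library as well. The count was 2 of the 12 other keratins (7 tied), 1 of 11 adherens junction genes and 1 of 8 epithelial to mesenchymal transition genes. Over all genes tested the share was 16.5%. Of 8 genes of the epithelial to mesenchymal transition, 7 passed and 0 were called, with a median of -0.37. Zeb2, a repressor of Cdh1 that macrophages also express, was at 293, 106 and 366 CPM in the sensitive and 272, 293 and 262 CPM in the resistant libraries. Vim, the vimentin gene, was at 1344, 1747 and 868 CPM in the sensitive and 779, 1675 and 1361 CPM in the resistant libraries, above Krt8 in each.

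Lists of cell types that could be present were counted in the same way, beside 0.536% of all genes higher and 2.54% lower. In the cholangiocyte list 5 of 10 genes passed and 0 were called (median log2 fold change 0.57), in the mesothelium list 5 of 7 and 0 (0.02), and in the intestinal list 4 of 9 and 0 (-0.42). In the hepatocyte list 11 of 14 passed and 2, Tat and Hnf4a, were called higher (1.08). Tat had 8, 0 and 3 counts in the sensitive and 19, 27 and 14 counts in the resistant libraries. Hnf4a had 8, 0 and 2 counts in the sensitive and 11, 12 and 47 counts in the resistant libraries. Both passed the filter through the resistant libraries, where they were higher, so these calls are given as a description. In the pancreas list 6 of 14 passed and 1, Cela1, was called lower (-3.14). In the endothelial list all 16 passed and 4, Kdr, Tek, Erg and Emcn, were called lower (-0.81), and in the macrophage list all 16 passed and 1, Timd4, was called lower (-0.11). The adjusted p of each of these genes was above 0.05.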

How the data were processed

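The data were RNA-seq libraries of mouse LSECs, 3 sensitive and 3 resistant, grouped by sample title. The series' design text speaks of another cell type, LX-2, and was not used. The labels state ribosomal RNA depletion, and the study's Methods name poly(A) selection as well. The authors aligned reads with Hisat2 2.0.5, counted them on genes with featureCounts 1.5.0-p3 and deposited raw counts, and they deposited FPKM values (counts per length and library total). The submitters' notes name mm9, but 98.2% of 19998 gene lengths implied by FPKM matched GENCODE M21 (GRCm38) within 0.1%, so GRCm38 coordinates were used. A deposited table of the authors' own comparison holds group means, fold changes and p-values and was not used.

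Counts were filtered with filterByExpr (15474 of 60832 genes kept), normalized by TMM and tested with edgeR 4.0.16 (robust quasi-likelihood, two-sided, Benjamini-Hochberg, threshold 0.05) in R 4.3.3. CPM values were TMM-scaled. Standard errors were derived from the F statistic, and intervals from its degrees of freedom. Library totals were between 17599326 and 20726684, and without molecular identifiers counting error is a lower limit on error. No pair of libraries within a group was a duplicate (lowest chi-square per gene 37.8). The tests were checked on simulated counts with 200 changed genes, 100 of them changed 4-fold, at an adjusted p under 0.05. There edgeR recovered 42 of the 200 and 40 of the 100, and called 2 unchanged genes. DESeq2 recovered 88 and 72 and called 54 unchanged genes, and limma-voom recovered 40 and 38 and called 3. Alternatives were other size factors, DESeq2 1.42.0, limma-voom (limma 3.58.1), other filters, log2(FPKM + 1) and log2(FPKM + 0.1), a replicate block and leaving out each library. The genes read and the 13 lists were chosen with earlier results of these data known. All 10 genes are named, with at most 3 genes per list of the largest mean CPM, and a gene outside this rule is named as the bead target (Mcam), as the gene behind a count, or with the remark that its values were seen. Krt19, Cdh1 and Sox9 had no promoter window, and the windows of Krt7 and Krt20 were not printed. Figures were drawn with matplotlib 3.10.9.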

Additional observations from a re-analysis of the deposited data

How the results depend on the processing

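No setting gave an adjusted p under 0.05 for any of the genes. Over all genes, the number with an adjusted p under 0.05 was 24 with DESeq2 and 2 with no filter on low counts, against 0, and the number with an unadjusted p under 0.05 was 732 and 2036, against 476. Leaving out 1 library gave 167 to 1056 such genes (167 without resistant replicate 3, 245 without resistant replicate 2, 1056 without sensitive replicate 3), 0 to 1 of the 9 with an unadjusted p under 0.05 (Cldn4, without sensitive replicate 3) and 0 to 2 without overlap, beside 12.7% to 26.8% of all genes. Without sensitive replicate 1 the latter were Sox9 and Cldn3 (19.7% of all genes), and without resistant replicate 1 Cldn3 (23.4%). Of 133 log2 fold changes of the 9 genes under the alternatives, 97 kept their direction and 36 did not, and the cause was not tested. Reversed values with limma-voom were 1.03 for Krt7, 0.64 for Krt18, 0.92 for Cdh1, 0.19 for Sox9 and 0.91 for Cldn4. On log2(FPKM + 1) they were 0.026 for Krt7, 0.48 for Krt18, 0.22 for Cdh1 and 0.42 for Cldn4, and on log2(FPKM + 0.1) 0.51, 0.61, 0.72 and 0.82 in the same order and 0.17 for Sox9. With no filter, Cdh1 was at 0.018. With the replicate number as a block they were 0.13 for Krt7, 0.057 for Krt18, 0.37 for Cdh1, 0.35 for Sox9 and 0.33 for Cldn4, with 0 adjusted and 467 unadjusted calls over all genes. Equal numbers pair nothing by the labels, the correlations of deviations were -0.00093, 0.034 and 0.194, and not every library correlated best with its own number. Leaving out 1 library gave -0.94 to 1.09 for Krt7, -1.01 to 1.05 for Krt18, -0.71 to 1.07 for Krt8, -0.57 to 1.58 for Krt19, -0.45 to 0.77 for Epcam, -0.64 to 0.30 for Cdh1, -0.65 to 1.22 for Sox9 and -0.93 to 0.27 for Cldn4. Cldn3, Krt23, Cldn1, Cldn2 and Esrp1 kept their direction in every setting that tested them. Krt20, with 0 to 29 counts, was tested only with no filter, at 2.25 (unadjusted p = 0.170 by edgeR).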
